A study of Mus musculus with 10 samples.

Results

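The SNARE and synaptic vesicle genes of the mouse were followed in single Rreb1-/- and Rreb1+/+ embryos at embryonic day 7.5. They were chosen by symbol: every row of the gene table named Syt, Stx, Vamp, Snap or Stxbp with a number, together with Sv2a to Sv2c and Syn1 to Syn3. This gave 57 genes of the 20974 in the table, of which 29 were classed as neuronal, 27 as widely expressed and 1 is a pseudogene (Stxbp3-ps). RREB1 binds DNA through zinc fingers and acts as a repressor or an activator depending on context, and the comparison asked how transcripts of these genes differed once it was lost. The embryos came from crosses of Rreb1+/- mice and carried the CD1 strain label. There were 5 Rreb1-/- embryos, whose allele was made by CRISPR deletion in exon 6, and 5 Rreb1+/+ embryos. The study made a larger and a smaller deletion of this exon and pooled the data of both lines. Which of them these embryos carried is not given. It describes its mice as outbred to CD1 and kept on a mixed background. No agent was given for either genotype. The parietal endoderm had been dissected off for genotyping, and the RNA came from the remaining whole embryo, extraembryonic tissue included, so that fewer cells of a type and less RNA per cell cannot be told apart.

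SNARE proteins drive membrane fusion. A SNARE on the vesicle (a VAMP) zips up with SNAREs on the target membrane (a syntaxin and a member of the SNAP25 family) and so pulls the membranes together. In neurons this machinery is held ready by syntaxin-binding proteins and triggered by calcium through synaptotagmins. The same families also serve every other cell, in traffic between the Golgi, endosomes, lysosomes and the surface. The embryo at this stage is gastrulating and has no synapses, so that transcripts of the neuronal members are measured here before their usual setting exists.

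The deposited values were read counts divided by a size factor for each embryo, here called normalized counts, and rested on 31467767 to 35446574 reads in genes per Rreb1-/- embryo and 33317560 to 35786876 per Rreb1+/+ embryo. Rreb1 transcripts were more abundant in the Rreb1-/- embryos (3988 to 5715 normalized counts, against 2365 to 2924 in Rreb1+/+), and since the count covers all exons it does not check the deletion. Sex was unequal: Rreb1-/- replicates 3 to 6 had 5849 to 9171 normalized counts summed over 4 Y-linked genes, while Rreb1-/- replicate 2 had 2.12 and the Rreb1+/+ embryos 0 to 3.82. Replicates 5 and 6 also stood apart from replicates 2 to 4 in both genotypes, with less Pou5f1 (3060.2 and 3922 normalized counts against 7207 to 11366 in Rreb1-/-, 3411 and 4149.6 against 6806 to 10968.5 in Rreb1+/+). Of 12 neuronal marker genes, Neurod1, Neurog1 and Neurog2, which commit progenitors to the neuronal fate, were at 0 to 16.2 normalized counts in every embryo. Others were present in both genotypes and did not pass the test described below, such as Elavl3 (151 to 546) and Stmn2 (469 to 761). Nefl and Nefm did not pass either and varied widely between embryos (92.6 to 1612 and 51.1 to 1762), which weighs on the sum of the list. The summed level of the 12 was 3426 to 6546 in Rreb1-/- and 1755 to 4743 in Rreb1+/+ embryos. The tubulin gene Tubb3 and the microtubule-associated gene Map2 were the 2 of 9 tested markers that rose (log2 fold change 1.42 and 0.79, limma, adjusted p = 0.00166 and 0.0334). This is 22.2%, against 3.11% of all genes tested. The list was drawn up with earlier results of these data known. The study also reported Tubb3 as raised in these same embryos, so the share is no independent evidence. For Map2 the genotypes overlapped. It did not pass under quantile scaling (limma, adjusted p = 0.0532) or in several fits that left out an embryo (adjusted p up to 0.0852). The part of cell composition, sex or stage in the results that follow was not tested beyond the values given with them.

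Of the 57 genes, 51 had a mean of at least 15 normalized counts in at least 1 genotype and were tested with limma on log2(normalized count + 1), with p-values adjusted over all 15603 genes tested. Transcripts of 9 members rose in Rreb1-/- embryos at an adjusted p under 0.05 and those of 0 fell. This is 17.6% of the members tested that rose, against 3.11% of all genes tested, and none that fell, against 1.15%. Among them Syt11 rose most, 3.94-fold, and others were Syt5 (3.29-fold), Syt1 (2.39-fold), Sv2c (1.95-fold), Snap91 (1.85-fold), Syt14 (1.42-fold), Snap47 (1.31-fold) and Stxbp6 (1.30-fold). The 5 Rreb1-/- embryos lay above all 5 Rreb1+/+ embryos for each of the 9, as they did for 10 members in all, Vamp4 being the other (19.6%, against 4.24% of all genes tested). Without adjustment, 13 members were higher and 2 lower at p under 0.05 by limma, against 9.74% and 8.21% of all genes tested. Among tested neuronal members 7 of 26 rose (26.9%), and their median log2 fold change was 0.29. Among widely expressed members 2 of 25 rose (8.00%), with a median of 0.03, and the median of all genes tested was -0.02. The classes were assigned from textbook knowledge, with earlier results of these data known. A difference between both classes was not tested. With the replicate number as a block 11 members rose and 0 fell, against 4.59% and 2.28% of all genes in that fit. With edgeR on the recovered reads 9 members rose and 0 fell, against 3.24% and 1.08% of all genes. DESeq2 called 10 higher and also 2 lower, Stx17 and Syt7, against 5.24% and 2.86% of the 14979 genes to which it gave an adjusted p. The 2 lower calls are near the share over all genes.

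**Figure D1:**
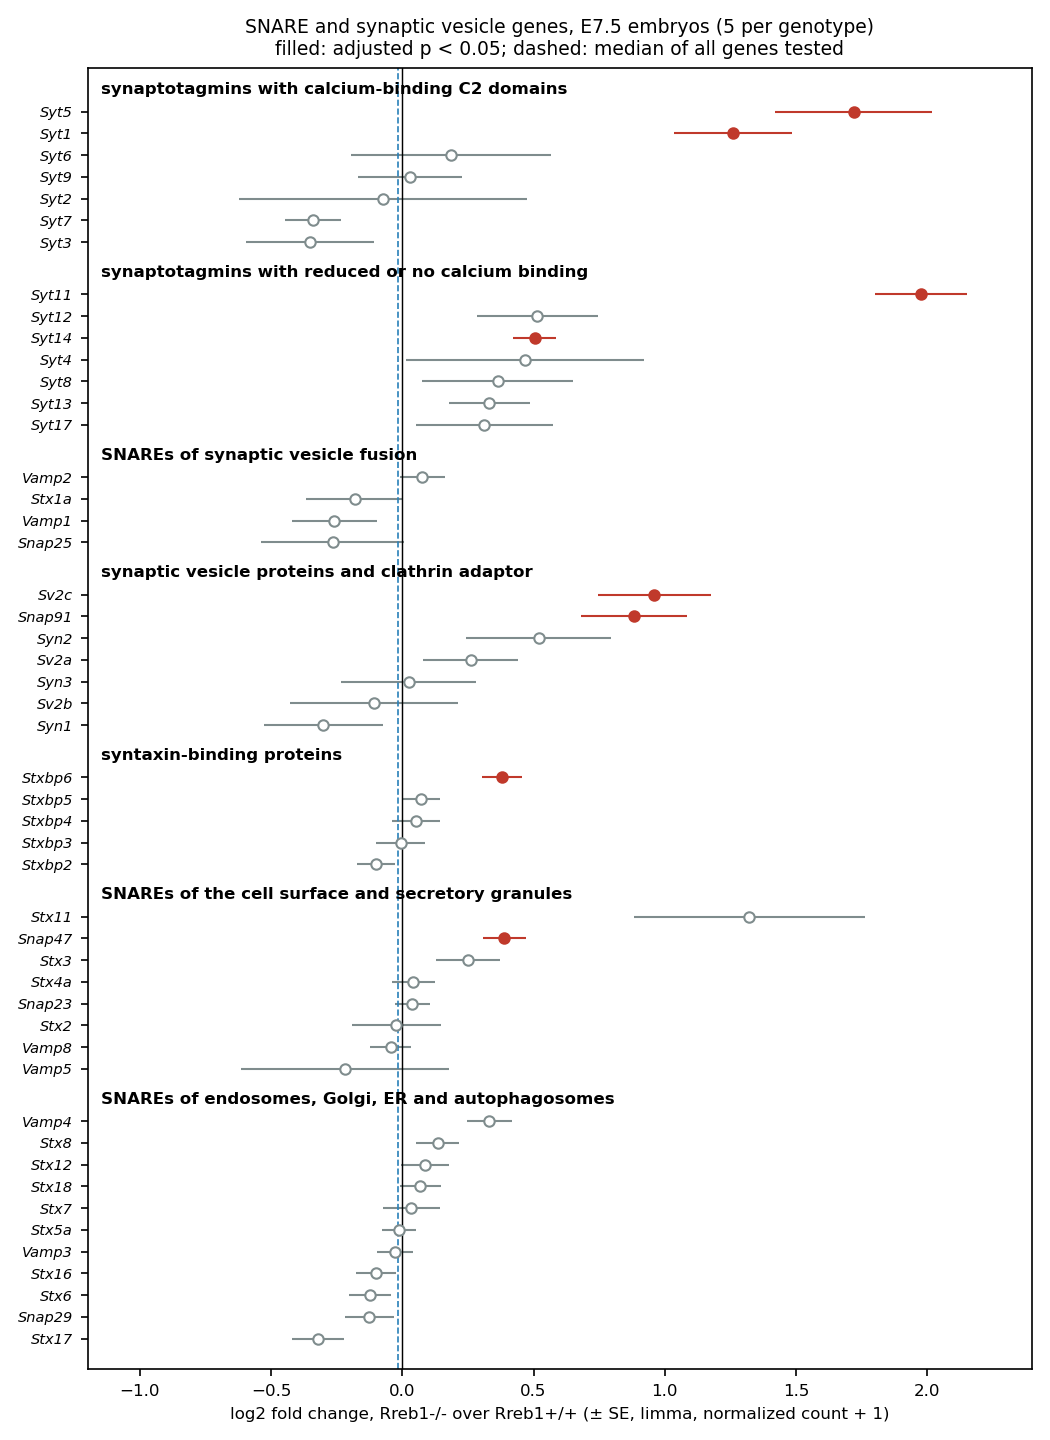
Log2 fold change of Rreb1-/- over Rreb1+/+ embryos (± SE, limma) for 49 of the 51 tested members, grouped by role; filled points passed an adjusted p under 0.05 and the dashed line is the median of all genes tested, -0.02. The 8 filled points lie between 0.38 (Stxbp6) and 1.98 (Syt11), and 40 of these 49 members lie within 0.5 of 0.

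The synaptotagmins that bind calcium weakly or not at all held the 2 lowest adjusted p-values of all members. Syt11, which lacks calcium binding and is known for restraining endocytosis in neurons, had 2374, 2393, 2519, 2598 and 1920.3 normalized counts in Rreb1-/- replicates 2 to 6, against 663, 793, 741, 450.4 and 427 in Rreb1+/+ replicates 2 to 6. The genotypes were far apart, and Rreb1+/+ replicates 5 and 6 were lower than Rreb1+/+ replicates 2 to 4. The log2 fold change was 1.98 ± 0.18 (SE, limma, adjusted p = 0.000112), and the exact two-sided permutation p was 0.00794, the smallest that 5 against 5 can give. Syt14, another member without calcium binding, had 1249, 1123, 1346, 1189 and 1065 in Rreb1-/- and 886, 883, 787, 886 and 763 in Rreb1+/+ embryos. Its change was smaller but the embryos of each genotype were close to each other, and the log2 fold change was 0.50 ± 0.082 (limma, adjusted p = 0.00530). The other 5 tested members of this group did not pass. Syt12, Syt4, Syt8, Syt13 and Syt17 had log2 fold changes between 0.31 and 0.51, of which Syt4 and Syt8 entered the test only through their mean in Rreb1-/- embryos, so that nothing is read from their sign. Syt4, an early-response gene of neurons and endocrine cells, was low, with 18.0, 15.6, 32.9, 11.2 and 6.26 normalized counts in Rreb1-/- embryos and 9.59, 20.1, 15.3, 6.72 and 5.65 in Rreb1+/+ embryos (log2 fold change 0.47 ± 0.45, limma, adjusted p = 0.633). An antisense gene, Gm26658, covers 14.5% of its exons, and whether the counting used strand is not given.

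Among the calcium-binding synaptotagmins 2 of 7 tested members rose, both at low levels, against 3.11% of all genes tested. Syt1, the calcium sensor of fast transmitter release, had 59.3, 69.6, 105, 77.1 and 72.0 normalized counts in Rreb1-/- embryos, against 36.5, 44.2, 30.6, 23.0 and 24.5 in Rreb1+/+ embryos. Syt5, a sensor on dense-core vesicles, had 67.8, 101, 109, 74.3 and 106 in Rreb1-/- and 28.8, 35.1, 45.8, 14.4 and 19.8 in Rreb1+/+ embryos. For both genes the genotypes did not overlap, and Rreb1+/+ replicates 5 and 6 were the lowest of all 10 embryos. The log2 fold change was 1.26 ± 0.23 for Syt1 (limma, adjusted p = 0.00917) and 1.72 ± 0.30 for Syt5 (adjusted p = 0.00770). Both genes, Syt11 and Rims1 also stand in the list of changed genes that the study drew from the same embryos, which is no independent evidence. Syt7, a slow sensor of high affinity that also works in lysosome exocytosis, had 220.4, 258, 231, 293 and 239 in Rreb1-/- and 279, 318, 319, 303 and 348 in Rreb1+/+ embryos. Only 1 Rreb1-/- embryo, replicate 5, reached into the Rreb1+/+ range, and the log2 fold change of -0.34 ± 0.11 did not pass with limma (adjusted p = 0.115) but did with DESeq2 (adjusted p = 0.0496). Syt2, Syt3, Syt6 and Syt9 lay between -0.35 and 0.19 and did not pass.

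**Figure D2:**
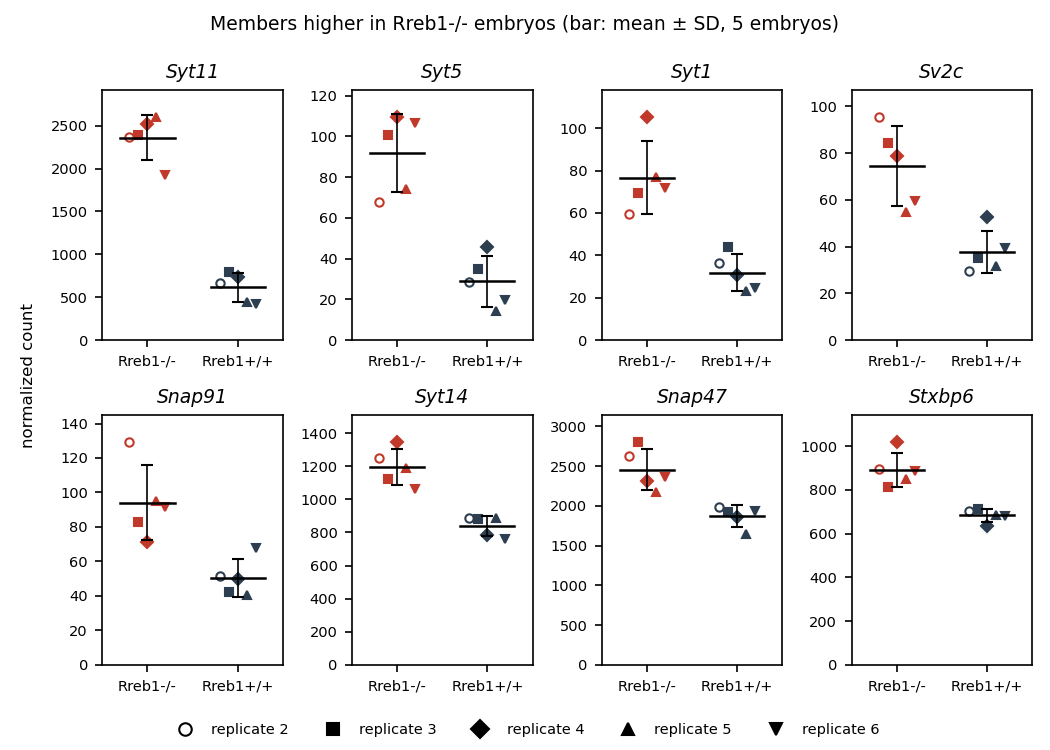
Normalized count of 8 of the 9 members that rose, in Rreb1-/- (left, red) and Rreb1+/+ (right, dark) embryos; each symbol is 1 embryo, open circles are replicate 2, and bars give mean ± SD of 5. In each panel every Rreb1-/- embryo lies above every Rreb1+/+ embryo, with the widest gap for Syt11.

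To set levels beside each other, counts were divided by kilobases of exon, with all annotated exons of a gene merged. A gene with long, little-used exons comes out too low by this measure. The synaptotagmin transcripts together came to 828 ± 75.2 normalized counts per kilobase in Rreb1-/- embryos and 419 ± 39.2 in Rreb1+/+ embryos (mean ± SD, n = 5 each). Syt11 made up 54.7% ± 1.62 of this sum in Rreb1-/- and 27.9% ± 5.49 in Rreb1+/+ embryos. The sum without Syt11 was 375 ± 27.2 in Rreb1-/- and 301 ± 16.5 in Rreb1+/+ embryos. Syt13, Syt14, Syt9 and Syt7 came next in Rreb1+/+ embryos, with 10.1% to 17.1% of the sum each. A larger share of Syt11 lowers the other shares by construction. Syt14 held 12.1% in Rreb1-/- and 17.0% in Rreb1+/+ embryos although its own level rose. Syt1 supplied 1.11% ± 0.216 in Rreb1-/- and 0.900% ± 0.182 in Rreb1+/+ embryos, so that the neuronal calcium sensor was a minor transcript of the family in both genotypes.

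**Figure D3:**
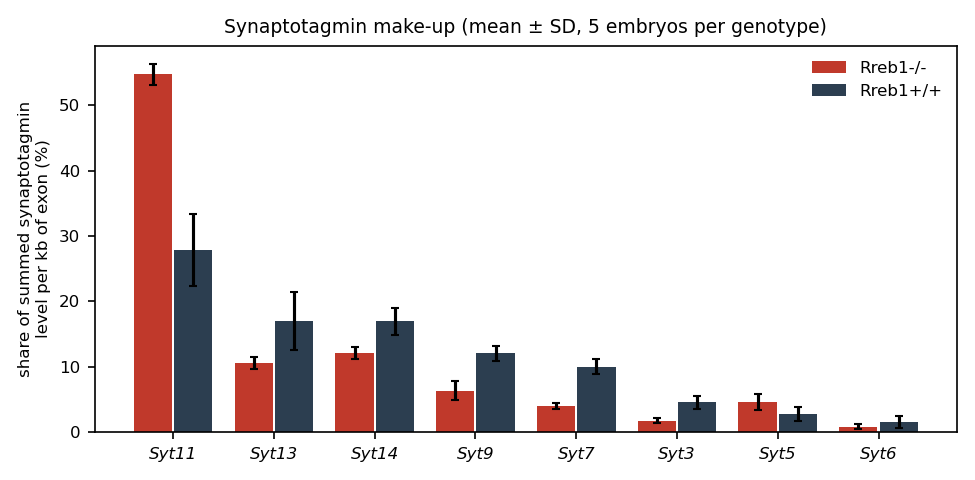
Share of the summed synaptotagmin level, in normalized counts per kilobase of exon, for the 8 synaptotagmins with the highest share in Rreb1+/+ embryos (bars: mean ± SD of 5 embryos; Rreb1-/- left, Rreb1+/+ right). Syt11 holds 54.7% in Rreb1-/- and 27.9% in Rreb1+/+ embryos. Its larger share makes the other shares smaller by construction, so a smaller share is not by itself a lower level.

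The bases before the start sites of Syt11 and Syt1 are shown because Syt11 changed most and Syt1 is the best known of the family. They are the 250 bases before RefSeq's start (GRCm38.p6), 5′ to 3′ on the gene's strand, and capitals mark the 7-letter string CCACCCC on either strand, part of the C-rich sites that RREB1 is known to bind. By GENCODE, Syt11 spans chr3:88744700-88775164 and Syt1 chr10:108497650-109010982. The Syt11 window is chr3:88772600-88772849 and the Syt1 window chr10:109010976-109011225, both on the minus strand.
Syt11: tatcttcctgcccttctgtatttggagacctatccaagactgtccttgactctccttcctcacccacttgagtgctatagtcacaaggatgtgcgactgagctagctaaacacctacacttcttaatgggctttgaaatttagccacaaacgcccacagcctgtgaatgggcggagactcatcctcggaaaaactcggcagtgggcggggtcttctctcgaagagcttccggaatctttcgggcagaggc
Syt1: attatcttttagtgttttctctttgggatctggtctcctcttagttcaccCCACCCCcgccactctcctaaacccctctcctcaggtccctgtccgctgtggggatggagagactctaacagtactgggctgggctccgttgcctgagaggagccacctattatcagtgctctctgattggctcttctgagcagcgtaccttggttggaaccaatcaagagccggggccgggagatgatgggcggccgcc
The string stood once in the Syt1 window and was not found in the Syt11 window or in a second RefSeq window of Syt1. RefSeq's start of Syt11 lies inside the span that GENCODE gives the gene. Of the 44 members with such a window, 11 held the string (25.0%), and of the 7 with a window among the 9 that rose, 3 did (Syt1, Syt14 and Sv2c). Among all 27025 genes with a window the share was 15.2%. A match of 7 letters is a description and not a binding site.

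Among the SNAREs of synaptic vesicle fusion, Stx1a, Snap25, Vamp1 and Vamp2 did not pass the test. Stx1a, a syntaxin of the presynaptic membrane, had 136, 212, 182, 270.4 and 231 normalized counts in Rreb1-/- and 176, 251, 251, 222 and 249.6 in Rreb1+/+ embryos, with overlapping ranges (log2 fold change -0.18 ± 0.19; adjusted p = 0.653 by limma). Snap25, the plasma membrane partner of Stx1a, was low, with 19.1, 17.7, 39.3, 30.7 and 14.6 in Rreb1-/- and 30.7, 30.1, 26.7, 24.0 and 26.4 in Rreb1+/+ embryos. Its log2 fold change was -0.27 ± 0.27 (limma, adjusted p = 0.656). The vesicle SNAREs Vamp1 and Vamp2 had log2 fold changes of -0.26 ± 0.16 and 0.08 ± 0.086 (adjusted p = 0.438 and 0.693, limma). Vamp2, which also serves fusion outside neurons, had the highest level of these 4 genes per kilobase of exon (287 in Rreb1-/- and 272 in Rreb1+/+ embryos), and averaged 1094 ± 103 normalized counts in Rreb1-/- embryos and 1038 ± 83.1 in Rreb1+/+ embryos (SD, n = 5 each).

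Of the 7 proteins of the vesicle itself and its coat, 2 rose, against 3.11% of all genes tested. Sv2c, a vesicle glycoprotein and receptor of botulinum toxin, had 95.4, 84.2, 78.6, 54.8 and 59.5 normalized counts in Rreb1-/- embryos and 29.7, 35.1, 52.5, 31.7 and 39.6 in Rreb1+/+ embryos. The gap between the genotypes was narrow, since the lowest Rreb1-/- embryo was only just above the highest Rreb1+/+ embryo. Snap91 encodes AP180, a clathrin adaptor that rebuilds synaptic vesicles and is no SNARE despite its symbol. It had 129, 83.1, 71.1, 94.8 and 91.8 in Rreb1-/- and 51.8, 42.2, 49.6, 40.3 and 67.8 in Rreb1+/+ embryos, with a similar narrow gap. The log2 fold changes were 0.96 ± 0.22 for Sv2c and 0.88 ± 0.20 for Snap91 (limma, adjusted p = 0.0301 and 0.0317). These 2 calls were the least stable. Sv2c was called in 3 and Snap91 in 2 of the 10 fits that left out an embryo, with adjusted p up to 0.0771 and 0.0841 (limma).

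The synapsins, which tether vesicles to actin, were close to the lower limit of the test. Syn1, on the X chromosome, had 24.4, 24.9, 21.2, 19.5 and 29.2 normalized counts in Rreb1-/- embryos and 40.3, 37.1, 26.7, 25.0 and 21.7 in Rreb1+/+ embryos. Syn2 had 35.0, 19.7, 27.6, 25.1 and 33.4 in Rreb1-/- and 18.2, 30.1, 13.4, 13.4 and 24.5 in Rreb1+/+ embryos. Syn3 had 10.6, 17.7, 23.4, 14.9 and 13.6 in Rreb1-/- and 16.3, 17.1, 12.4, 19.2 and 12.2 in Rreb1+/+ embryos, and 14.1% of its exon bases overlap Timp3 on the opposite strand. The ranges overlapped for all of them, with log2 fold changes of -0.30, 0.52 and 0.02 (limma, adjusted p = 0.532, 0.355 and 0.974). Sv2a, the vesicle glycoprotein bound by the drug levetiracetam, had 344 ± 66.5 in Rreb1-/- and 289 ± 62.7 in Rreb1+/+ embryos (mean ± SD, n = 5 each; log2 fold change 0.26 ± 0.18, limma, adjusted p = 0.488). Sv2b had a log2 fold change of -0.11 ± 0.32 (adjusted p = 0.895).

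Neuronal genes outside the nervous system are widely held down by the repressor REST, which binds the RE1 element. The upstream windows of Sv2c, which rose, and Syn1, a classic RE1 gene that did not pass, are shown as examples. A different string is marked in each, so they are no like-for-like contrast. CCACCCC also stood in windows of members that did not pass, such as Sv2a, Syt2, Syt3, Syt6, Stx2, Stx16 and Stxbp2. A part of either string in the changes was not tested. Capitals mark CCACCCC in Sv2c (chr13:96132578-96132827) and the left arm of RE1, TTCAGCACC, in Syn1 (chrX:20920919-20921168), both on the minus strand of GRCm38.p6 and from RefSeq.
Sv2c: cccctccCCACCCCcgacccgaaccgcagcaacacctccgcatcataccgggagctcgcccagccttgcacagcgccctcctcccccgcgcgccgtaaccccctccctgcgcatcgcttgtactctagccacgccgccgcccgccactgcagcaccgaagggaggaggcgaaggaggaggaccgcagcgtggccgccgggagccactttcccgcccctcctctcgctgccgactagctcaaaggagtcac
Syn1: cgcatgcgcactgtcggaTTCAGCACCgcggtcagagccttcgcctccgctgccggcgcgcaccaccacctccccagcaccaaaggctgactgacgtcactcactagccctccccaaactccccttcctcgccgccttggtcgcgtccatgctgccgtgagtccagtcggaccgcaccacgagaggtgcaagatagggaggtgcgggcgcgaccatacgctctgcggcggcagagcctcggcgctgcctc
The left arm of RE1 was found on either strand in 1 of 44 members, Syn1, in 0.348% of all genes with a window, and in 0 of the 7 members with a window that rose. RE1 elements often lie outside so short a window.

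**Figure D4:**
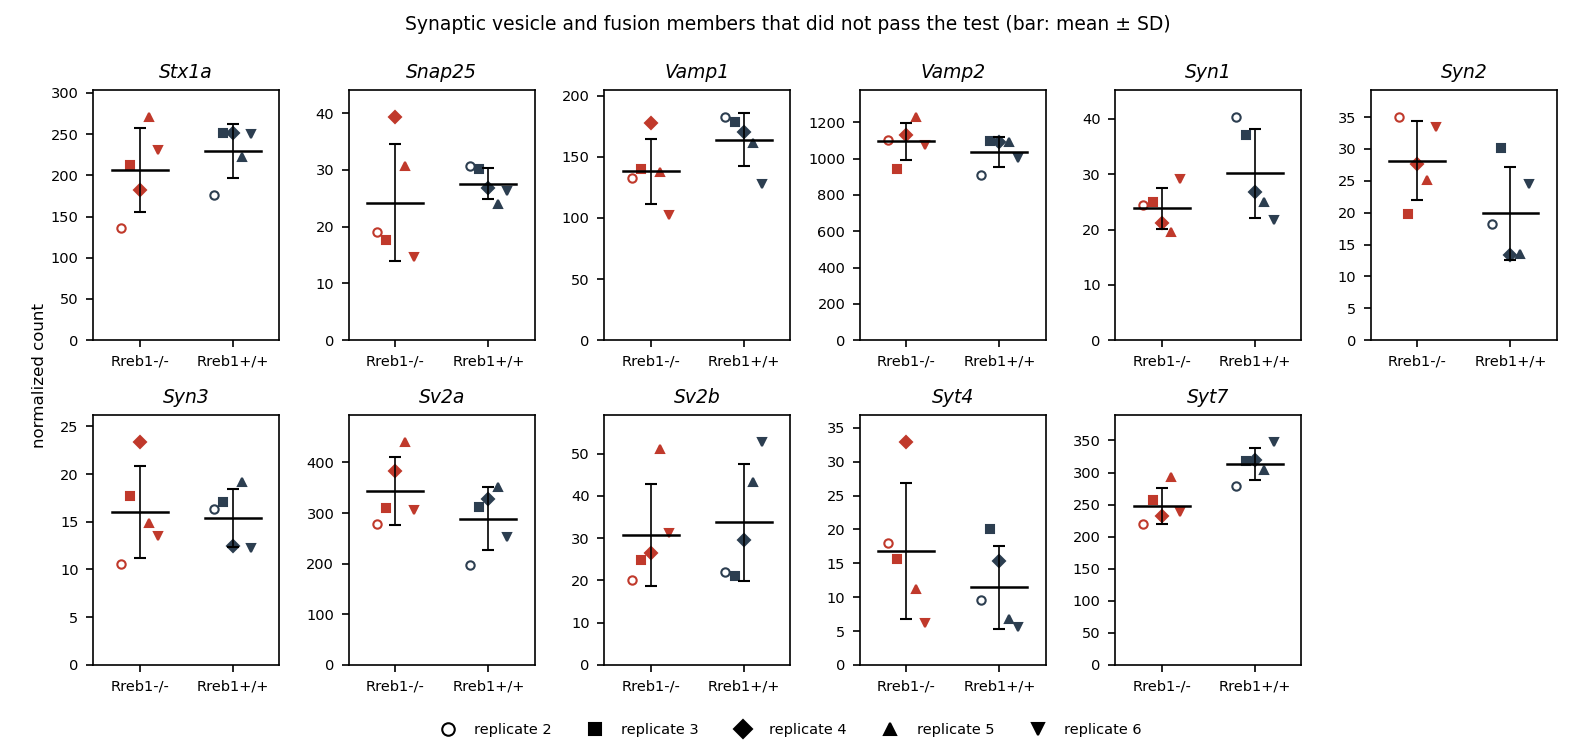
Normalized count of 11 members of the vesicle and its fusion machinery that did not pass the test, in Rreb1-/- (left, red) and Rreb1+/+ (right, dark) embryos; each symbol is 1 embryo and bars give mean ± SD of 5. The ranges of the genotypes overlap in every panel, and Snap25, Syn1, Syn2, Syn3 and Syt4 reach at most 40.3 normalized counts.

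Among the syntaxin-binding proteins Stxbp6 rose. This protein, or amisyn, which can take the place of a VAMP in SNARE complexes, had 894, 812, 1018, 850.3 and 886 normalized counts in Rreb1-/- embryos, against 705, 711, 637, 686 and 682 in Rreb1+/+ embryos. The change was small and the spread within each genotype smaller still, with no overlap (log2 fold change 0.38 ± 0.076; adjusted p = 0.0163 by limma). Stxbp2, which serves granule release in blood and epithelial cells, averaged 3188 ± 275 normalized counts in Rreb1-/- embryos and 3412 ± 221 in Rreb1+/+ embryos (mean ± SD, n = 5 each), with a log2 fold change of -0.10 ± 0.072. Stxbp3, Stxbp4 and Stxbp5 lay between -0.01 and 0.07.

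The SNAREs that every cell uses were the most abundant members. Per kilobase of exon Vamp3 led, with 1753 normalized counts in Rreb1-/- embryos and 1788 in Rreb1+/+ embryos, ahead of Stx7 (1292 in Rreb1-/- and 1253 in Rreb1+/+ embryos) and Snap23 (1038 in Rreb1-/- and 1011 in Rreb1+/+ embryos). At the cell surface and in secretory granules, Snap47 rose, with 2627, 2802, 2307, 2168 and 2359 normalized counts in Rreb1-/- embryos, against 1985, 1927, 1862, 1643 and 1934 in Rreb1+/+ embryos. Snap47 is a SNAP25 relative without the lipid anchor. Its log2 fold change was 0.39 ± 0.082 (limma, adjusted p = 0.0215), and leaving out Rreb1-/- replicate 2, Rreb1+/+ replicate 4 or Rreb1+/+ replicate 5 took the adjusted p to 0.0543, 0.0516 and 0.0554. Jmjd4 covers 11.6% of its exon bases on the opposite strand and had a log2 fold change of -0.09. Stx11, a syntaxin of immune cells, had 61.5, 59.2, 35.0, 18.6 and 24.0 in Rreb1-/- and 20.1, 21.1, 21.0, 6.72 and 7.54 in Rreb1+/+ embryos. Replicates 2 to 4 were above replicates 5 and 6 in both genotypes, and the log2 fold change of 1.32 ± 0.44 passed with the replicate number as a block (limma, adjusted p = 0.0130) but not without it (adjusted p = 0.136). Stx3, the apical syntaxin of epithelia, averaged 5628 ± 961 normalized counts in Rreb1-/- embryos and 4709 ± 577 in Rreb1+/+ embryos (log2 fold change 0.25 ± 0.12, limma, adjusted p = 0.317). Snap23, Stx2, Stx4a, Vamp5 and Vamp8 did not pass.

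Among the 11 SNAREs of endosomes, Golgi, endoplasmic reticulum and autophagosomes none was called with limma, and 9 had a log2 fold change within 0.2 of 0. Without adjustment 1 was higher and 1 lower at p under 0.05 (limma), against 9.74% and 8.21% of all genes tested. With edgeR 0 were called. Vamp4, of the trans-Golgi network, had 882, 672, 772, 704 and 752 normalized counts in Rreb1-/- embryos and 644, 563, 592, 615 and 582 in Rreb1+/+ embryos. The genotypes did not overlap, and the adjusted p was 0.0538 with limma, 0.0355 with the replicate block and 0.00570 with DESeq2 (log2 fold change 0.33 ± 0.086). Stx17, which fuses autophagosomes with lysosomes, was the 1 member for which every Rreb1-/- embryo lay below every Rreb1+/+ embryo (2.46% of all genes tested), with 512, 432, 567, 541 and 425 in Rreb1-/- and 615, 657, 589, 636 and 581 in Rreb1+/+ embryos. Its log2 fold change of -0.32 ± 0.098 had an adjusted p of 0.105 with limma and 0.0387 with DESeq2. Stx7, of late endosomes, averaged 5779 ± 929 normalized counts in Rreb1-/- embryos and 5606 ± 522 in Rreb1+/+ embryos (mean ± SD, n = 5 each; log2 fold change 0.03 ± 0.11).

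The 6 members below the limit of the test were Stx19, Stxbp3-ps, Stxbp5l, Syt10, Syt15 and Syt16. Each had between 0.955 and 21.2 normalized counts in every embryo, with overlapping genotypes. They were not tested in the main fit. With no filter the same 9 members were called higher and 0 lower (limma).

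Fewer of the 9 members passed the test in subsets of the embryos. Since the genotypes did not overlap for these genes, any subset must give a positive log2 fold change, and only its size and the test are described. In replicates 2 to 4 alone the log2 fold changes were 0.40 to 1.73 and 4 passed, among them Syt11, Syt14 and Syt5, against 2.17% of all genes higher in that fit. In replicates 5 and 6 alone they were 0.34 to 2.35 and Syt11 passed (limma, adjusted p = 0.00619), against 0.545% of all genes. Rreb1-/- replicate 2, the embryo without Y-linked transcripts, set alone against the 5 Rreb1+/+ embryos gave log2 fold changes of 0.39 to 1.99, with 0 passing (limma, adjusted p 0.0529 to 0.238), against 0.506% of all genes, while 7 had an unadjusted p under 0.05. This fit takes the spread from the Rreb1+/+ embryos only. After adding Y-linked expression (log2 of the sum) to the model, the log2 fold changes were 0.39 to 1.97 and Syt11 passed (limma, adjusted p = 0.0349), with the other 8 at up to 0.244 and 0.532% of all genes higher. The Rreb1+/+ embryos and Rreb1-/- replicate 2 had next to no Y-linked transcripts. The genotype term of the fit with Y-linked expression therefore rests mainly on replicate 2 and is no separate check. In it Syt11 had a log2 fold change of 1.97, against 1.98 without Y-linked expression in the model. Other members moved either way: Syt1 had 0.93 against 1.26, Syt5 1.25 against 1.72, and Snap91 1.42 against 0.88.

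**Figure D5:**
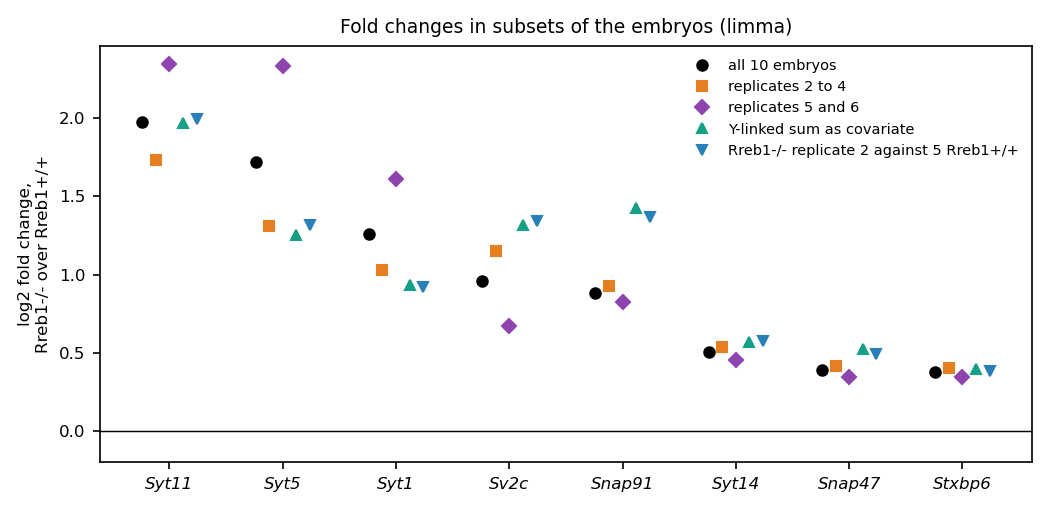
Log2 fold change (limma) of 8 of the 9 members that rose, over all 10 embryos, in replicates 2 to 4, in replicates 5 and 6, with Y-linked expression in the model, and for Rreb1-/- replicate 2 against the 5 Rreb1+/+ embryos. The genotypes of these genes did not overlap, so points of subsets lie above 0 by construction; the sizes run from 0.34 (Stxbp6 and Snap47, replicates 5 and 6) to 2.35 (Syt11, replicates 5 and 6).

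The wider release machinery, a list of 54 genes of active zones, vesicle priming and vesicle recycling, moved in both directions. This list too was drawn up with earlier results of these data known. Of 43 tested, 5 rose and 2 fell, against 3.11% and 1.15% of all genes, with a median log2 fold change of 0.03. Without adjustment 10 were higher and 7 lower at p under 0.05 (limma), against 9.74% and 8.21% of all genes. Those that rose were Syngr3, a vesicle membrane protein (1.59), Rims1, an active zone scaffold (1.27), the endocytic genes Amph (1.21) and Sh3gl2 (1.02), and Ppfia4, a liprin (0.60; limma, adjusted p 0.000407 to 0.0431 for the 5). Sh3gl2, or endophilin A1, had 371, 323, 430.1, 359 and 397 normalized counts in Rreb1-/- embryos and 167, 189, 210.1, 170.0 and 187 in Rreb1+/+ embryos. The widely expressed Syngr2 (-0.59) and the priming factor Unc13b (-0.64) fell (limma, adjusted p = 0.00292 and 0.0219). Unc13b did not pass without Rreb1-/- replicate 2 or Rreb1+/+ replicate 3 or 4 (adjusted p 0.0535, 0.0628 and 0.0606). With the Y-linked covariate 0 of the 5 that rose passed, and Syngr2 passed. Of the other SNAREs and fusion factors, such as NSF and the Golgi SNAREs, 0 of 21 tested were called in either direction, with log2 fold changes of -0.16 to 0.16; 0 were higher and 1 was lower at an unadjusted p under 0.05, and edgeR and DESeq2 called 0. Of the synaptotagmin relatives (extended synaptotagmins and synaptotagmin-like proteins) 0 of 6 tested were called by limma, edgeR or DESeq2, 2 were lower at an unadjusted p under 0.05, and the median log2 fold change was -0.35.

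Markers of other tissues gave the following background. Of the neurectoderm markers, the intermediate filament gene Nes fell (log2 fold change -0.85 ± 0.12, limma, adjusted p = 0.00230) and the other 6 tested did not pass. Pax6 was at 9.54 to 38.1 normalized counts in Rreb1-/- and 29.6 to 52.8 in Rreb1+/+ embryos, and passed with the replicate block (adjusted p = 0.0385, limma) but not without it (adjusted p = 0.157). The summed levels of the neurectoderm list were 3342 to 5337 in Rreb1-/- and 4608 to 5331 in Rreb1+/+ embryos. Of the visceral endoderm markers, Afp fell (log2 fold change -1.32 ± 0.26, limma, adjusted p = 0.0157) and 7 did not pass. Of the 6 blood markers 0 passed with limma, edgeR or DESeq2. By limma 2 were lower at an unadjusted p under 0.05, against 8.21% of all genes tested. With the replicate block 3 fell, against 2.28% of all genes. The summed level of the 6 was 375 to 3081 in Rreb1-/- and 1095 to 12453 in Rreb1+/+ embryos. Epiblast and streak, trophoblast and maternal or immune markers had 0 calls with limma, edgeR and DESeq2 and 0 genes at an unadjusted p under 0.05. The part of these differences in the changes of the 9 members was not tested.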

How the data were processed

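PolyA RNA of 10 single embryos was sequenced, 5 Rreb1-/- and 5 Rreb1+/+. Per the study's methods, mapped reads went through Picard to HTSeq for counting and to DESeq for scaling, and the values the authors deposited are therefore a linear signal, the read count of a gene divided by 1 size factor per embryo. For the build, the gene models and the strand setting, what was used is not given in the sources used here. Values were whole multiples of 1 step in each embryo for 100% of them (within 0.1 read), which returned the reads, 31467767 to 35786876 per embryo. PCR duplicates could not be told from molecules, so depth covers counting error only. Gene identifiers were matched to GENCODE M21 (GRCm38) for positions and exon lengths, for all 57 members, and upstream sequences from RefSeq (GRCm38.p6) by symbol, for 44 members.

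The genes averaging 15 or more in a genotype (15603 of 20974) entered limma 3.58.1 (R 4.3.3) on log2(normalized count + 1), with a mean-variance trend. P-values were adjusted by Benjamini-Hochberg and the threshold for a call was 0.05. Fold changes on this scale understate the change of low genes. For single members an exact permutation test, two-sided, ran over 252 arrangements. Alternatives included edgeR 4.0.16 and DESeq2 1.42.0 run on recovered reads, TMM and quantile scaling, pseudocounts of 0.5 and 5, no filter or a mean of at least 50, an adjusted p under 0.01, an added 2-fold change, a replicate block, a Y-linked covariate, tests without X and Y genes, replicates 2 to 4 or 5 and 6 alone, leaving out each embryo and, added after seeing the data, the embryos without Y-linked reads. Replicate numbers were taken from sample titles. Same-numbered embryos deviated together (correlation 0.253 to 0.459 for the 5 pairs), and the numbers were used as a block. This does not show that they are pairs. Rreb1-/- replicates 3 and 4 correlated most with Rreb1+/+ replicates 4 and 3 (0.362 and 0.383, against 0.253 and 0.294 for their own numbers). Rreb1-/- replicates 5 and 6 correlated most with Rreb1+/+ replicates 6 and 5 (0.400 and 0.492, against 0.398 and 0.459). All correlations between replicates 2 to 4 and replicates 5 and 6 were negative. Deviations were taken from the mean of each genotype and cancel within it, so that some negative correlations follow by construction.

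The members, their classes and roles, and the lists were chosen with earlier results of these data known. Named were all called members, members called only by edgeR, DESeq2 or the block, 14 core synaptic members whatever their values, the member with the highest mean in each role, and up to 5 called genes of each other list; Vamp3, Snap23, Stx4a, Ppfia4, Syngr2, Jmjd4, Pax6 and Pou5f1 were added after their values were seen. The counts cover all members, but 2 members are not reported here. The fits were run beforehand on simulated counts with changes of 2-fold or more. Smaller changes, the replicate sets and the unequal sex were not simulated, so that test does not cover them. The study's imaging was not analysed here.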

Additional observations from a re-analysis of the deposited data

Results flagged for a closer look

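Among the 37 named genes, 74 sets of 5 embryos were examined for 1 embryo standing apart by Dixon's criterion, which chance meets in about 1 in 20 sets. A single value did so. Rims1 in Rreb1-/- replicate 4 had 76.5 normalized counts, against 57.4 to 61.5 in the other Rreb1-/- embryos, a gap of 0.786 of the range. No named SNARE or synaptic vesicle gene stood apart in this way.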

How the results depend on the processing

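The 9 members higher in Rreb1-/- embryos became 4 at an adjusted p under 0.01, 3 with a 2-fold change added, 1 with the Y-linked covariate, 4 in replicates 2 to 4 alone, 1 in replicates 5 and 6 alone and 0 for the embryos without Y-linked reads, and 6 to 8 when an embryo was left out. Members lower in Rreb1-/- numbered 2 by DESeq2 and 0 in every other fit, those leaving out an embryo included (0 to 0). Release machinery genes higher in Rreb1-/-, 5 in all, became 0 with the Y-linked covariate, 1 in replicates 5 and 6 alone and 0 without Y-linked reads, and 4 to 5 when an embryo was left out. Those lower, 2 in all, became 4 by DESeq2, 1 at an adjusted p under 0.01, 0 with a 2-fold change added, 1 with the Y-linked covariate, 1 in replicates 2 to 4 alone, 0 in replicates 5 and 6 alone and 1 without Y-linked reads, and 1 to 2 when an embryo was left out. The causes were not tested, beyond the stricter thresholds and the fewer embryos by construction. With the replicate block 11 members were higher, Vamp4 and Stx11 being added, and it changed no other call of a member. Over all genes limma called 486 higher and 179 lower, the replicate block 716 and 356, and DESeq2 785 and 428, while the Y-linked covariate left 107 calls and replicates 5 and 6 alone 106. Sv2c was also lost under quantile scaling (limma, adjusted p = 0.0553). TMM, both pseudocounts, both filters, edgeR, DESeq2 and the tests without X and Y genes kept all 9 members called. Genotype and sex can be parted by only 1 Rreb1-/- embryo. The mean of 15 normalized counts was a chosen filter and not a limit of detection. With no filter 6 release machinery genes were higher in Rreb1-/- embryos, against 5 with it (limma).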
